A study of Homo sapiens with 6 samples.

Results

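CELF1, RBFOX2, PTBP1 and TIA1 encode RNA-binding proteins that regulate splicing, and their own transcripts are followed here as RNAs contacted by another such protein, QKI-5. The 4 genes were chosen by name with earlier results of these libraries known, and their members are the crosslink events that fall within 4 fixed hg19 intervals on the coding strand. They are 4 genes in a series where 174732 strand-specific windows of 10 kb held at least 1 event. Because the genes were selected with the contrast between antibody and control in view, their values in that contrast are given as descriptions and no p-value is attached to them.

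QKI-5 is the nuclear form of Quaking, a STAR-family protein that binds single-stranded RNA at an ACUAA core with a nearby second element, and that promotes or represses exons according to where it binds around them. CELF1 binds GU-rich RNA and acts in alternative splicing and in mRNA decay. RBFOX2 binds GCAUG and controls many exons that differ between epithelial and mesenchymal cells. PTBP1 binds pyrimidine tracts and mostly represses exons, and TIA1 binds U-rich RNA behind weak 5′ splice sites and takes part in stress granules. Genes of splicing regulators often carry regulated exons themselves, and introns make up most of their length.

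All 6 libraries came from the established human cell line BEAS2B, which derives from bronchial epithelium. Cells were irradiated with ultraviolet light, which links protein to RNA in place, and iCLIP then read the nucleotide at which reverse transcription stopped next to the linked protein. The 3 QKI-5 iCLIP libraries were made with an anti-QKI5 antibody, and the 3 control libraries were made with no antibody; no difference in cells, genotype or treatment between the groups is given in the labels. The labels do not say whether replicates were separate cultures, so spreads between libraries may be technical. The QKI-5 libraries held 2143279 to 7283982 events, and the controls held 29810 to 137926. Levels are given in EPM, events per 1000000 events of the library, and 1 event was worth 0.137 to 0.467 EPM with the antibody and 7.25 to 33.5 EPM without it. A count of 0 allows up to 3 events, which is 0.412 to 1.40 EPM in a QKI-5 library and 21.8 to 100.6 EPM in a control, so control values are coarse. Intervals and floors cover counting error only. Marker genes of bronchial epithelium and of other cell types were not analysed here, since no hg19 annotation was used, and for the same reason events were not assigned to exons, introns or UTRs.

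Crosslinking to the CELF1 transcript, chr11:47487489-47574792 on the minus strand, was nearly equal in the 3 QKI-5 libraries. They held 3669, 1081 and 1421 events, which is 504, 504 and 492 EPM, against 49, 9 and 9 events, or 355, 217 and 302 EPM, in the controls. Every QKI-5 library was above every control. In how many windows of the genome this held was not counted, so nothing is read from it here or in the genes below. Over the 87.3 kb of the interval the density was 5.73 ± 0.08 EPM per kb with the QKI-5 antibody and 3.34 ± 0.80 EPM per kb without antibody (SD, n = 3 each). The pooled ratio of QKI-5 to control was 1.56, with a 95% counting interval of 1.23 to 2.02.

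RBFOX2, chr22:36134783-36424585 on the minus strand, is the longest of the 4 at 290 kb and took the most events. The QKI-5 libraries held 6661, 1711 and 2625 events, 914, 798 and 909 EPM, and the controls held 91, 23 and 15 events, 660, 555 and 503 EPM. The groups did not overlap. Per length RBFOX2 was nevertheless the lowest of the 4, at 3.02 ± 0.23 EPM per kb in QKI-5 libraries and 1.98 ± 0.28 EPM per kb in controls (SD, n = 3 each), with a pooled ratio of 1.45 (1.22 to 1.74).

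PTBP1, chr19:797392-812327 on the plus strand, was the one gene with no excess of the QKI-5 libraries by mean or pooled EPM. Its 14.9 kb held 356, 152 and 156 events in QKI-5 libraries, 48.9, 70.9 and 54.0 EPM, and 11, 3 and 1 events in controls, 79.8, 72.3 and 33.5 EPM. The groups overlapped, with 2 of the 3 controls above every QKI-5 library. The density was 3.88 ± 0.77 EPM per kb in QKI-5 libraries and 4.14 ± 1.66 EPM per kb in controls (SD, n = 3 each), and the pooled ratio of 0.752 had an interval of 0.453 to 1.35. With 15 control events in all, a difference of that size was not detectable at this depth.

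TIA1, chr2:70436576-70475792 on the minus strand, had the highest mean density per length. The QKI-5 libraries held 2179, 430 and 822 events, 299, 201 and 285 EPM, and the controls held 24, 12 and 4 events, 174, 289 and 134 EPM. The groups overlapped, because control replicate 2 lay above QKI-5 replicates 2 and 3. Over 39.2 kb the density was 6.67 ± 1.36 EPM per kb in QKI-5 libraries and 5.08 ± 2.05 EPM per kb in controls (SD, n = 3 each), with a pooled ratio of 1.46 (1.07 to 2.04). That interval, as in the other genes, leaves out the spread between libraries, and replicate 1 held most of the pooled QKI-5 events. It is not a test of the groups.

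Ordered by density in the QKI-5 libraries, TIA1 came before CELF1, then PTBP1 and RBFOX2. The libraries of TIA1, 5.12 to 7.63 EPM per kb, spanned those of CELF1, 5.63 to 5.78, so these neighbours did not differ beyond their spread. PTBP1, 3.27 to 4.75, lay just above RBFOX2, 2.75 to 3.16, and both lay below every CELF1 library. In the controls the order of the means was TIA1, PTBP1, CELF1 and RBFOX2. No measure of RNA amount was used here, so more transcript and more contact per transcript cannot be told apart, nor can cells that differ in number or in RNA content.

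**Figure D1:**
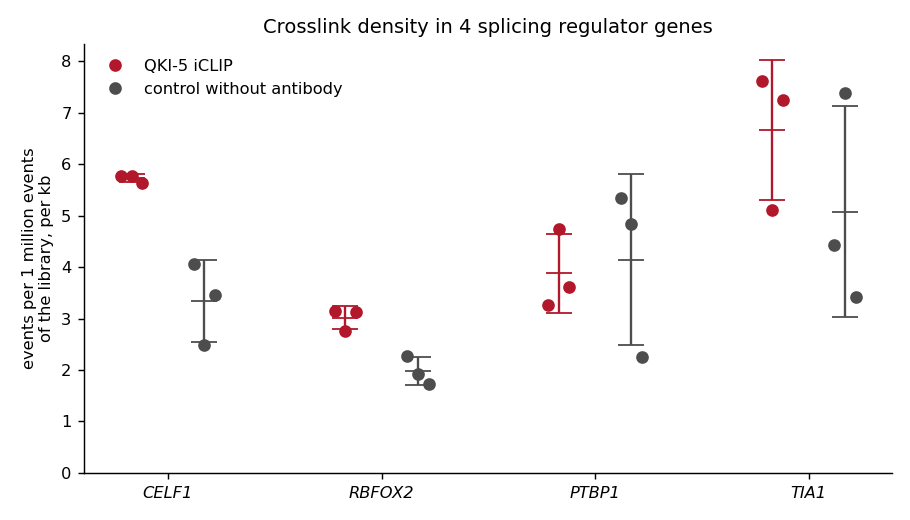
Crosslink density of CELF1, RBFOX2, PTBP1 and TIA1 in events per 1000000 events of the library and per kb (vertical axis), with 1 point per library and bars for the mean ± SD of 3 libraries, QKI-5 iCLIP left of the control without antibody. The groups are apart for CELF1 and RBFOX2 and overlap for PTBP1 and TIA1. The share of all windows with groups apart was not counted.

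The signal followed the annotated strand and stopped near the interval ends. On the opposite strand the QKI-5 libraries together held 7 events in CELF1, 1 in RBFOX2, 1 in PTBP1 and 4 in TIA1, and the controls held 0 in each. In the 10 kb before the 5′ end of CELF1 the pooled QKI-5 density was 0.779 EPM per kb and in the 10 kb past its 3′ end 0.844 EPM per kb, against 5.74 EPM per kb within it. RBFOX2 had 0.0893 and 0.284 EPM per kb in the same flanks against 3.08 within, TIA1 had 0.0812 and 0.227 against 7.10, and PTBP1 had 0.568 and 0.0731 against 3.61. The flank before PTBP1 was the highest relative to its gene.

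A model across the whole genome placed these values against all windows. Of 29960 windows of 10 kb tested with edgeR's quasi-likelihood test and Benjamini-Hochberg adjustment at 0.05, 226 were called higher in QKI-5 libraries (0.754%) and 32 lower (0.107%). Library totals in place of TMM factors gave 25 higher and 58 lower, and a fit with the replicate number as a replicate block gave 0 and 0 (2195 windows at an unadjusted p under 0.05; DESeq2, without the block, called 429 and 150). Of the 48 windows that overlap the 4 genes, all of which were tested, 1 was called higher, the CELF1 window chr11:47560001-47570000, and 0 were called lower. The genes were chosen with this contrast known, so nothing is read from that count. The median log2 fold change of QKI-5 over control was 1.00 over these 48 windows and 0.78 over all windows tested. Scaling by library totals in place of TMM factors moved the median of all windows to 0.22, so gene values are also given relative to it.

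As whole intervals in that fit, the log2 fold changes of QKI-5 over control were 1.34 for CELF1 (SE 0.54), 1.22 for RBFOX2 (SE 0.57), 1.06 for TIA1 (SE 0.51) and 0.28 for PTBP1 (SE 0.56). Less the median of all windows they were 0.56, 0.44, 0.28 and -0.50. With library totals they were 0.72, 0.58, 0.42 and -0.29, so the sign for PTBP1 depended on the scaling, while PTBP1 stayed below the median of all windows in both, at -0.50 and -0.51 relative to it. CELF1, RBFOX2 and TIA1 lay above the median under both scalings. With library totals they were 0.50, 0.36 and 0.20 above it, and the SEs of their fold changes were 0.44, 0.44 and 0.45. Under both scalings these distances were near or below 1 SE. The median is also over windows of 10 kb, while the genes are whole intervals. TIA1 was at -0.11 relative to the median with no filter on low counts. Without control replicate 1 the log2 fold changes of CELF1, RBFOX2, TIA1 and PTBP1 rose to 2.51, 2.24, 1.75 and 1.56. The median of all windows was then 6.69, above all 4 genes, but over 52140 windows that passed the filter in place of 29960. The medians are thus over unlike sets of windows.

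The 4 genes differed in where along the transcript the events lay, and within each gene the 3 QKI-5 libraries gave similar profiles. Across bins of 1 kb, Pearson's r between pairs of QKI-5 libraries was 0.976 to 0.982 in CELF1 (87 bins), 0.949 to 0.963 in TIA1 (39 bins), 0.800 to 0.867 in RBFOX2 (289 bins) and 0.772 to 0.870 in PTBP1 (14 bins). These describe bins of the same libraries, which are not replicates, and the highest bins carry much of the value. No full 1 kb bin of the 4 genes was without QKI-5 events, and 83 of 87 bins in CELF1, 244 of 289 in RBFOX2, 14 of 14 in PTBP1 and 36 of 39 in TIA1 held events in all 3 QKI-5 libraries. Control events lay in 37, 85, 8 and 19 of these bins. Broad, low coverage of the whole interval was thus common to all 4 genes.

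Above that floor, CELF1 carried 1 dominant peak near its 5′ end. The bin from 7 to 8 kb downstream of the 5′ end reached 144, 115 and 119 EPM in QKI-5 replicates 1, 2 and 3, against a median of 3.64 EPM for the gene's bins. That bin was the highest in each of the 3 libraries. The 5′-most 10% of the interval held 37.3% of pooled QKI-5 events and 11.9% of pooled control events. The 5′ 50% held 66.2%, 67.1% and 68.5% of events in the QKI-5 libraries, against 61.2% of 67 pooled control events, for which the exact interval was 48.5% to 72.9%.

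RBFOX2 showed its peak toward the 3′ end. The bin from 233 to 234 kb reached 36.5, 44.8 and 38.8 EPM in QKI-5 replicates 1, 2 and 3, against a median of 2.17 EPM over its bins. It too was the highest bin in each library. Divided into 10 equal parts, the gene held 16.8% and 16.3% of pooled QKI-5 events in parts 9 and 10, at the 3′ end, against 10.9% and 24.8% of pooled control events. Just beyond the peak lay the quietest 10 kb of the gene, from 236.5 to 246.5 kb, a stretch picked after its values were seen, with 0.714, 0.513 and 0.623 EPM per kb in QKI-5 libraries. The 5′ 50% of the interval held 43.5%, 44.9% and 44.5% of events in QKI-5 libraries and 46.5% of pooled control events.

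In TIA1 the events gathered in the middle of the gene. The bin from 22 to 23 kb reached 73.9, 45.3 and 48.8 EPM in QKI-5 replicates 1, 2 and 3, against a median of 3.97 EPM over its bins. Part 6 of 10 equal parts of the interval contains it and took 44.2% of pooled QKI-5 events, against 4 of 40 pooled control events. The quietest 10 kb lay upstream, from 9.3 to 19.3 kb, with 1.21, 0.886 and 2.15 EPM per kb in the QKI-5 libraries.

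PTBP1 had the flattest profile by its highest bin against its median bin. Its highest bin, from 9 to 10 kb, reached 8.24, 12.6 and 11.8 EPM in QKI-5 replicates 1, 2 and 3, against a median of 3.13 EPM over its bins, and in QKI-5 replicate 1 the next bin was higher still. Part 7 of 10 equal parts of the interval held 30.1% of pooled QKI-5 events and 3 of 15 pooled control events, and part 10, at the 3′ end, held 14.9% of QKI-5 events. The 5′ 50% held 31.2%, 33.6% and 41.7% of events in QKI-5 libraries and 33.3% of pooled control events. By 10 equal parts RBFOX2 was flatter, at 6.74% to 16.8% of pooled QKI-5 events per part, against 4.07% to 30.1% in PTBP1.

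**Figure D2:**
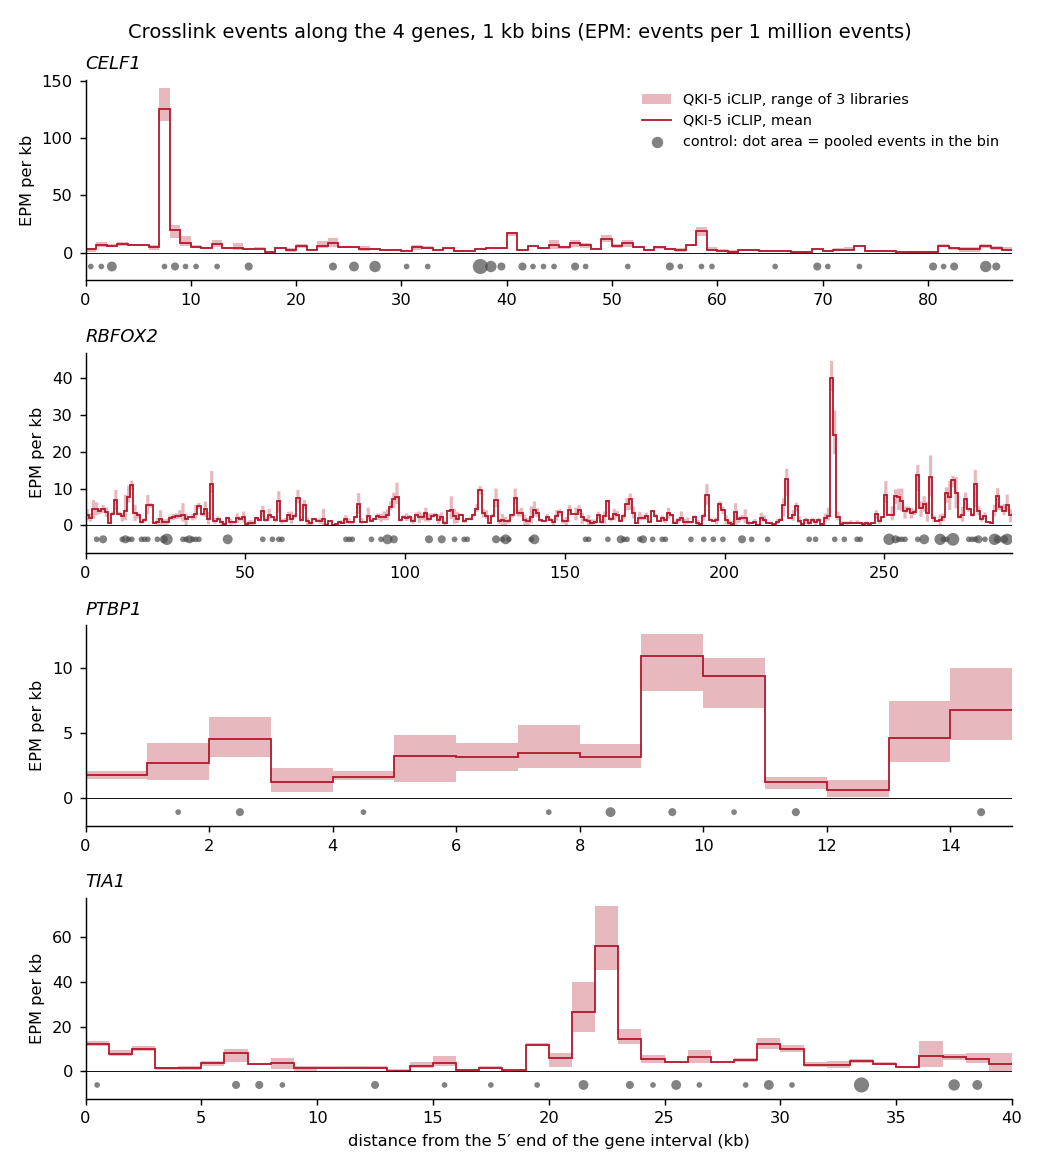
Crosslink events per 1000000 events of the library in bins of 1 kb (vertical axis, own scale for each gene) against distance from the 5′ end of the gene interval in kb. The red line is the mean and the band the range of the 3 QKI-5 iCLIP libraries, and grey dots mark bins with control events, with dot area proportional to their pooled number. CELF1 peaks at 7 to 8 kb, RBFOX2 at 233 to 234 kb, PTBP1 at 9 to 11 kb and TIA1 at 22 to 23 kb.

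The densest 2 kb of each gene, located from the pooled QKI-5 libraries, measured this concentration without regard to bin borders. In CELF1 it lay at chr11:47565289-47567288, 7.50 kb from the 5′ end, and held 31.6%, 27.1% and 29.6% of the gene's QKI-5 events in 2.29% of its length. The controls held 3 of 67 events there, 4.48% with an exact interval of 0.933% to 12.53%. The pooled ratio of QKI-5 to control was 10.6 within the stretch (3.62 to 51.4) and 1.14 over the rest of the gene (0.892 to 1.48). Because the stretch was placed where QKI-5 events were densest, a higher ratio inside it than outside follows in part from that choice, in each gene.

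The RBFOX2 stretch, chr22:36189539-36191538, held 6.58%, 9.70% and 6.40% of its events in QKI-5 libraries in 0.690% of its length, with 1 of 129 control events. Its pooled ratio was 13.1 (2.35 to 519), and the rest of RBFOX2 was at 1.36 (1.14 to 1.63). The TIA1 stretch, chr2:70452531-70454530, held 39.4%, 34.7% and 27.0% of events in QKI-5 libraries in 5.10% of its length, with 2 of 40 control events, a ratio of 10.4 (2.89 to 86.4), while the rest of TIA1 was at 0.984 (0.715 to 1.39). For PTBP1, chr19:806408-808407 held 38.8%, 33.6% and 34.6% of QKI-5 events, but these 2 kb are 13.4% of its length. The controls held 3 of 15 events there, and the ratio of 1.38 had an interval of 0.465 to 6.72. The rest of PTBP1 was at 0.596 (0.338 to 1.16).

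Since the stretch was located by the same libraries, it was also located from 2 QKI-5 libraries and measured in the one left out. The shares in replicates 1, 2 and 3 were then 31.5%, 27.1% and 29.6% for CELF1, 6.47%, 9.47% and 6.40% for RBFOX2, 38.5%, 29.6% and 32.1% for PTBP1, and 39.4%, 34.7% and 27.0% for TIA1. The stretch did not move for TIA1 in any of the 3, and it moved by at most 27 nt for CELF1, 400 nt for RBFOX2 and 351 nt for PTBP1. The ratio of each left-out library to the pooled controls was 9.53 to 11.05 within the CELF1 stretch and 1.13 to 1.20 over the rest, and 12.2 to 15.8 against 1.18 to 1.40 in RBFOX2. In TIA1 it was 7.27 to 12.3 within and 0.722 to 1.14 over the rest, and in PTBP1 1.21 to 1.46 within and 0.524 to 0.870 over the rest. The same few control events, 3 in CELF1, 1 in RBFOX2, 3 in PTBP1 and 2 in TIA1, enter each of these ratios within the stretch.

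**Figure D3:**
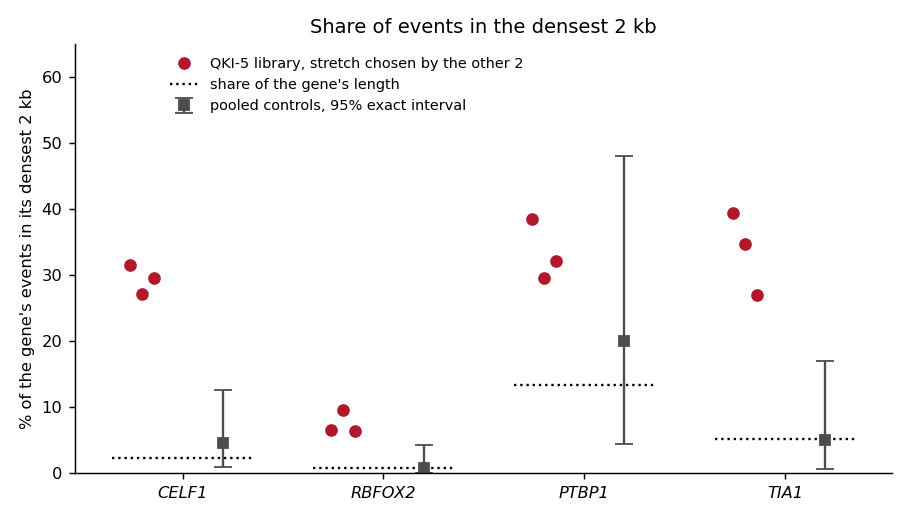
Percent of a gene's events that fell in its densest 2 kb (vertical axis): red points are QKI-5 iCLIP libraries, each measured in the stretch located from the other 2, and grey squares are the pooled controls in the stretch located from all 3, with 95% exact intervals. Dotted lines give the percent of the gene's length that the stretch covers; every QKI-5 point lies above its line, and the control interval overlaps the QKI-5 points in PTBP1 alone.

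At the scale of single contacts, a reproducible site was a place where the events within 31 nt reached 10 times the gene's own mean and at least 5 events in each of the 3 QKI-5 libraries, with the centres of such stretches joined within 15 nt. A site spans its joined centres and the nucleotides summed around them, so separate sites can adjoin or overlap at their margins. Over all windows with at least 100 QKI-5 events, 22.6% held such a site, measured against the window's own mean. By gene, CELF1 had 9 sites, RBFOX2 14, TIA1 6 and PTBP1 0. For windows, 4 of 10 in CELF1, 10 of 30 in RBFOX2, 4 of 5 in TIA1 and 0 of 3 in PTBP1 held one by that same window rule. These shares are not matched for depth, on which the minimum of 5 events depends. The median window held 461.5 QKI-5 events in CELF1, 336.5 in RBFOX2, 463 in TIA1 and 130 in PTBP1. Outside the 4 genes it held 185, so the shares are not compared with the 22.6%. The counts are not comparable between genes, because 5 events in QKI-5 replicate 2 amounted to 13.0 times the gene mean in CELF1, 27.3 in RBFOX2, 15.8 in PTBP1 and 14.7 in TIA1. None of the 29 sites held events of 2 or more controls. At 67, 129 and 40 control events in CELF1, RBFOX2 and TIA1, sites this short would seldom hold any, so nothing is read from this. The sites were called on the QKI-5 libraries, so their high QKI-5 counts are a description. The intervals of site ratios take no account of that choice, and their bounds are not tests of a site against the controls. A single control event was worth 7.25 to 33.5 EPM, so few or no control events alone do not set a site above the controls.

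The strongest site of all was in CELF1, at chr11:47566955-47567177, 7.62 kb from the 5′ end. These 223 nt held 876, 169 and 247 events in QKI-5 replicates 1, 2 and 3, which is 120, 78.9 and 85.5 EPM, and 1 event in all controls. They took 23.9%, 15.6% and 17.4% of the gene's QKI-5 events. Immediately upstream, chr11:47567183-47567255 held 153, 66 and 79 QKI-5 events and no control event. A further site, chr11:47566493-47566551, held 38, 32 and 27 QKI-5 events and 1 control event. Its pooled ratio of QKI-5 to control was 1.65 (0.289 to 65.7), against 21.9 (3.93 to 867) at the strongest site. For the site with no control event the interval began at 1.36, with the site chosen on the same QKI-5 counts. The single positions with the most events were 47567216, with 46, 15 and 22 QKI-5 events, and, 127 nt downstream, 47567089, with 54, 11 and 16. The 3 sites lie in the densest 2 kb, and the other 6 were spread from 22.3 to 58.1 kb. All 9 together covered 0.774% of CELF1 and held 35.6%, 30.3% and 29.9% of its QKI-5 events, against 3 of 67 control events.

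In RBFOX2, 5 of the 14 sites lay within its densest 2 kb. The strongest, chr22:36190910-36190991, held 140, 32 and 39 QKI-5 events and no control event. The interval of its pooled ratio began at 0.963, below 1. Next came chr22:36190169-36190252, with 110, 25 and 32 QKI-5 events and 1 control event, a pooled ratio of 2.84 (0.502 to 113). The next by level lay far from both, at chr22:36384600-36384675, 39.9 kb from the 5′ end. It held 96, 17 and 28 QKI-5 events and no control event, and the interval of its ratio began at 0.641. The 9 sites outside the densest 2 kb reached from 9.05 to 278 kb, nearly the full length of the gene. Together the 14 covered 0.281% of RBFOX2 and held 10.9%, 11.3% and 9.30% of its QKI-5 events, against 2 of 129 control events.

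TIA1 also had several separate peaks, with 4 of its 6 sites within its densest 2 kb. The site chr2:70452932-70453005 held 152, 24 and 46 QKI-5 events, and chr2:70453540-70453631 held 175, 34 and 23, each with no control event. The intervals of their pooled ratios began at 1.01 and 1.06, with the sites chosen on the same QKI-5 counts. A further site, chr2:70454461-70454515, held 96, 7 and 13 QKI-5 events and 1 control event, a pooled ratio of 1.97 (0.347 to 78.5). QKI-5 replicate 1 was the highest library in each of the 3 on the EPM scale, at 20.9, 24.0 and 13.2 EPM, against 11.2, 15.9 and 3.27 EPM in replicate 2 and 15.9, 7.96 and 4.50 EPM in replicate 3. The 6 sites covered 0.910% of TIA1 and held 24.3%, 19.5% and 14.5% of its QKI-5 events, against 2 of 40 control events.

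PTBP1 had no place that met the rule. Its best 31 nt, chr19:807702-807732, held 27, 1 and 4 events in QKI-5 replicates 1, 2 and 3 and no control event. Most of these events came from replicate 1, and the other 2 libraries were below the minimum of 5 events. In replicate 3, 5 events amounted to 15.4 times the gene mean, so its 4 events also lay well above that mean.

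**Figure D4:**
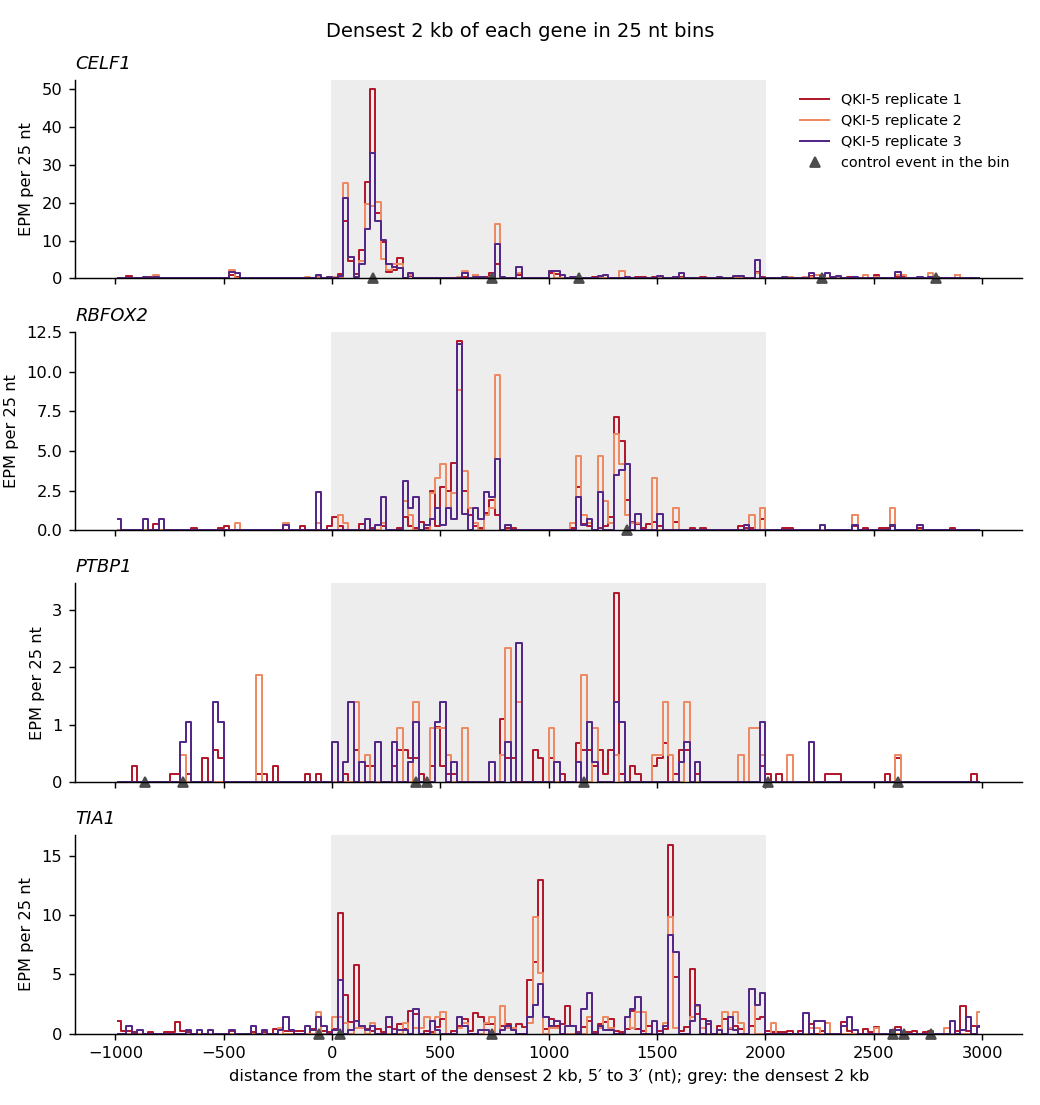
The densest 2 kb of each gene (grey) with 1 kb on either side, in bins of 25 nt: events per 1000000 events of each QKI-5 iCLIP library (vertical axis, own scale for each gene) against distance in nt from the start of the stretch, 5′ to 3′, with triangles where a control held an event. CELF1 shows a compact group of high peaks and, further downstream, a lower one, all shared by the 3 libraries, RBFOX2 and TIA1 show several shared peaks, and PTBP1 low bars that differ between libraries.

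Leaving the site events out showed how much they carried. Without them the log2 fold change of the whole interval was 0.85 in CELF1 (SE 0.51), 1.08 in RBFOX2 (SE 0.56) and 0.81 in TIA1 (SE 0.50), against the 1.34, 1.22 and 1.06 given above with all events. Relative to the median of all windows, CELF1 without its sites was at 0.07. Site events were left out of the gene intervals only, and that median stayed at 0.78 with and without them. A gene without its sites was thus set against windows that kept theirs, so nothing is read from the 0.07. PTBP1 had no site events to leave out. The sites were called on the QKI-5 libraries, so a lower value without them follows from their choice.

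Repeated events at 1 position were common in all 4 genes. The 3669, 1081 and 1421 CELF1 events of the QKI-5 libraries lay at 2136, 627 and 759 distinct positions, and in TIA1 2179, 430 and 822 events lay at 1366, 275 and 495. Whether repeats are separate molecules or copies made by PCR was not tested. Counting each position once lowered the share of the strongest 31 nt, averaged over QKI-5 libraries, to 2.28% from 8.10% with events in CELF1, to 2.72% from 5.04% in TIA1 and to 0.928% from 1.38% in RBFOX2. Counted once, 31 nt can hold at most 31 positions, so a lower share follows in part from the measure. With positions in place of events RBFOX2 had 7 sites, against 14 with events.

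Set against the rest of the transcriptome, the highest window of CELF1 stood near the top by level. The window chr11:47560001-47570000 held 193, 189 and 185 EPM in QKI-5 libraries and 36.3, 24.1 and 0 EPM in controls, rank 103 of 174732 windows by mean QKI-5 level. TIA1's, chr2:70450001-70460000, ranked 209, with 161, 97.5 and 122 EPM in QKI-5 libraries and 50.8, 72.3 and 33.5 EPM in controls. RBFOX2's, chr22:36190001-36200000, ranked 674, with 70.2, 81.2 and 71.3 EPM in QKI-5 libraries and 7.25, 48.2 and 0 EPM in controls. PTBP1's, chr19:800001-810000, ranked 2722, with 35.3, 44.8 and 42.2 EPM in QKI-5 libraries and 58.0, 48.2 and 33.5 EPM in controls. It was the one of the 4 windows in which the groups overlapped. How often groups overlap among all windows was not counted, so nothing is read from this.

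How focal these windows were was compared with windows of like depth, those within 1.5-fold in QKI-5 events. The densest 31 nt held 25% of the events in CELF1's highest window, above 78.7% of 169 like windows, and 18.0% in RBFOX2's, above 76.8% of 1597. In TIA1's window it held 10.6%, above 35.4% of 345 like windows, and in PTBP1's 6.74%, above 26.3% of 6059. The highest windows of CELF1 and RBFOX2 were therefore in the more focal part of their depth class, and those of TIA1 and PTBP1 in the less focal part. Over all windows of each gene the order was another, without matching for depth. The median share was 7.41% in CELF1, 8.63% in RBFOX2, 10% in PTBP1 and 10.6% in TIA1, against 8.96% outside the 4 genes.

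**Figure D5:**
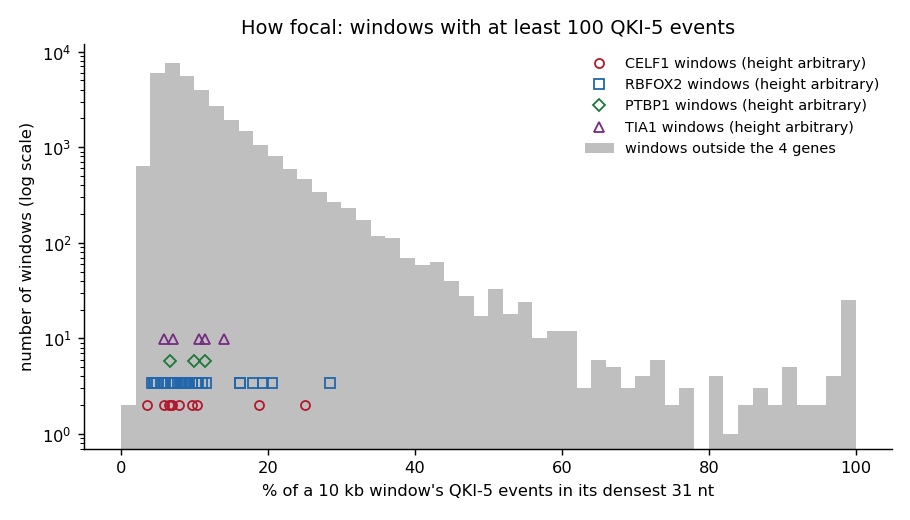
Number of 10 kb windows with at least 100 QKI-5 events outside the 4 genes (grey bars, log scale) by the percent of the window's QKI-5 events in its densest 31 nt (horizontal axis), with 1 symbol per window of CELF1, RBFOX2, PTBP1 and TIA1 drawn at an arbitrary height. The windows of the 4 genes lie between 3.61% and 28.5%, and the median of the grey distribution is 8.96%, with 5.14% and 20.2% at its 10th and 90th percentiles.

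The windows outside the 4 genes whose levels over all 6 libraries were most like the highest windows, by Euclidean distance of log2(EPM + 1), lay on other chromosomes. For CELF1 the nearest was chr4:74070001-74080000 on the minus strand, at a distance of 1.13, where the QKI-5 libraries averaged 171 EPM and the controls 28.2 EPM. For RBFOX2 it was chr5:72180001-72190000 on the plus strand (distance 0.53), for PTBP1 chr14:103800001-103810000 on the plus strand (distance 0.26) and for TIA1 chrX:70790001-70800000 on the plus strand (distance 0.53). The distances rest on 6 libraries, and the coarse control levels weigh on them.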

How the data were processed

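The deposited files give, per the file contents, single-nucleotide crosslink positions with strand and a whole-number count of events, 1 file per library; the authors' counts are not normalized. The submitters' processing notes name cutadapt, Bowtie and the build hg19, without versions. No source used here says whether PCR copies were merged before counting or what was done with multiply aligned reads. Bowtie aligns without gaps for introns, so where it was used alone, events in reads that span splice junctions would be missed.

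The genes, lists and stretches were chosen with earlier results of these data known. Events were summed over each interval on its strand and over 10 kb windows, and divided by library totals (EPM). Windows and intervals were tested together with edgeR 4.0.16 (quasi-likelihood, TMM factors, filterByExpr, group as the only term; R 4.3.3, limma 3.58.1); DESeq2 1.42.0 was an alternative. TMM factors enter the log2 fold changes but not the EPM. The SE given with an edgeR log2 fold change is its absolute size divided by the square root of the quasi-likelihood F statistic. Counts have 95% exact intervals. Sites were called as the report states, with Python 3.11.15, numpy 2.4.6, pandas 2.3.3 and scipy 1.17.1. Site calling and the edgeR fit were checked on simulated data. The rule for named items takes the 3 sites of each gene with the highest geometric mean EPM, its highest window and the windows nearest to it in level; of those, the nearest is given. Motifs, sequences, the related genes of each family and cell type markers were planned for an hg19 genome or annotation and are not analysed here.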

Additional observations from a re-analysis of the deposited data

How the results depend on the processing

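Control depth set the main limit: 67, 129, 15 and 40 control events in CELF1, RBFOX2, PTBP1 and TIA1 leave stretch and site ratios with wide intervals, and they cover counting error only. The cause of the following changes was not tested. Against 226 windows called higher and 32 lower, library totals gave 25 and 58, distinct positions 26 and 67, DESeq2 size factors 85 higher, no filter 6 lower, and DESeq2's Wald test 429 and 150. With the replicate number as a replicate block, edgeR called 0 higher and 0 lower (2195 at an unadjusted p under 0.05, smallest adjusted p 0.200). Same-numbered libraries deviated together with r of -0.003, 0.102 and 0.075. Other numberings gave -0.057 to 0.058, -0.106 to 0.008 and -0.071 to -0.006, so replicates 2 and 3 were most alike to their own number. These small values do not settle whether the numbers are pairs, and the main fit did not take them as pairs. Leaving out 1 library gave 30 to 859 higher, the most without control replicate 1, and 9 to 89 lower, over 892 to 54850 windows that passed the filter against 29960 with all libraries. The log2 fold change of CELF1 was 0.72 with library totals, 1.81 with no filter, 0.80 with distinct positions, 1.59 with the replicate block and 0.85 without site events. For RBFOX2 it was 0.58, 1.69, 0.98 and 1.42 in the first 4 of these, 1.02 with DESeq2 size factors and 1.03 with DESeq2. For PTBP1 it was -0.29 with library totals and 0.77 with no filter, and for TIA1 0.42, 1.55 and, with distinct positions, 0.60. Leaving out 1 library gave 0.67 to 2.51 for CELF1, 0.51 to 2.24 for RBFOX2, -0.59 to 1.56 for PTBP1 and 0.27 to 1.75 for TIA1. The highest of each came without control replicate 1 and the lowest without a QKI-5 library, replicate 3 for RBFOX2 and TIA1 and replicate 2 for CELF1 and PTBP1. Without control replicate 1 the median of all windows rose to 6.69, over 52140 windows in place of 29960, an unlike set. Relative to it, CELF1, RBFOX2, PTBP1 and TIA1 were at -4.18, -4.45, -5.13 and -4.95, their lowest. Relative to the median of the same fit, TIA1 was at -0.11 with no filter, 0.01 with distinct positions and -0.000525 without QKI-5 replicate 3. The CELF1 level was 457 per 1000000 distinct positions, 520 EPM with at most 10 events per position and 545 EPM without the 20 windows heaviest in controls, and the RBFOX2 level was 947 and 951 EPM under the last 2. CELF1 had 14 sites at 5-fold, RBFOX2 7 with a 15 nt sum, 7 with distinct positions and 39 at a minimum of 3 events, which was tried after the data were seen, and TIA1 2 at 20-fold. Sites required in 2 of the 3 QKI-5 libraries numbered 10 to 14 in CELF1, 19 to 38 in RBFOX2, 0 to 2 in PTBP1 and 8 to 10 in TIA1. The strongest 31 nt held 2.28% of CELF1, 0.928% of RBFOX2 and 2.72% of TIA1 by distinct positions, and a window over 3 times as wide held 16.1%, 2.10% and 6.47%. The 5′ 50% held 60.7% of CELF1, 45.1% of RBFOX2 and 27.4% of TIA1 by distinct positions, and 59.5% of CELF1 and 45.1% of RBFOX2 without the strongest site. Measuring the densest 2 kb in the library that did not choose it, also added after the data were seen, moved no gene's mean share by more than its SD, while the PTBP1 share in QKI-5 replicate 2 was 29.6%, against 33.6% in the pooled choice. Of all values recomputed, 77 moved and 103 did not.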

Other observations

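Beyond the nearest, the next windows most like the highest window of each gene are given for completeness. For CELF1 they were chr6:35840001-35850000 on the minus strand and chr14:104140001-104150000 on the plus strand, at distances of 1.20 and 1.25. For RBFOX2 they were chr7:20370001-20380000 and chr13:113490001-113500000, both on the plus strand, at 0.62 and 0.72. For PTBP1 they were chr4:74080001-74090000 on the minus strand and chr1:171550001-171560000 on the plus strand, at 0.30 and 0.31. For TIA1 they were chr13:20590001-20600000 on the plus strand and chr13:50640001-50650000 on the minus strand, at 0.74 and 0.79. The window nearest to PTBP1 in second place adjoins the one nearest to CELF1, chr4:74070001-74080000, on the same strand. There the QKI-5 libraries averaged 44.3 EPM and the controls 46.6 EPM, while in its neighbour the QKI-5 libraries averaged 171 EPM and the controls 28.2 EPM.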
